A study of Arabidopsis thaliana with 36 samples.

Results

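The genes described here are 49 nuclear loci of Arabidopsis thaliana that encode the small subunit of Rubisco and proteins of the photosynthetic membrane, of 32833 genes counted in each library. They were chosen by locus identifier, by what they encode and not by a threshold on measured values. They comprise 4 small-subunit genes (RBCS), 5 genes of the LHCB1 family and 4 of the LHCB2 and LHCB3 families of the major antenna, 5 genes of the minor antenna (LHCB4 to LHCB6), 6 antenna genes of photosystem I (LHCA), 12 photosystem I subunits (PSA), 10 photosystem II subunits (PSB) and 3 electron carriers (PETC, PETE1 and PETE2). Each locus was counted in 36 RNA-seq libraries, 3 from each of 12 groups.

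Seedlings of 3 genotypes, the accession Col-0 and the mutants hy5 and phyAB, were compared at 2 temperatures, with roots and shoots sampled apart 6 days after germination. All plants had 16 h of light and 8 h of dark, and were germinated at 21 °C. The groups called 21 °C had nights at 15 °C, and the groups called 27 °C had nights at 21 °C. The stay at the higher temperature is 4 h by the title and the design and 3 days by the treatment protocol, so its length is not known here. The HY5 protein is a transcription factor that acts in light responses, and the phytochromes PHYA and PHYB sense red and far-red light. The sources used here do not give the mutant alleles, and nothing says that replicates were separate cultures, so p-values measure the spread between these libraries, which may be technical.

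In the chloroplast, photosystem II takes electrons from water and passes them through the cytochrome b6f complex and plastocyanin to photosystem I. LHCB and LHCA proteins bind chlorophyll and pass absorbed light energy to the photosystems, and Rubisco, made of a plastid-encoded large and a nuclear-encoded small subunit, fixes carbon dioxide. The nuclear genes for these proteins are known for high transcript levels in green tissue and low levels in roots, and as a class of light-induced genes to which HY5 contributes, in part by binding G-box elements.

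Promoter stretches are shown for members that moved apart from close relatives, and for LHCA4 as a member that moved with most others. Each is the 250 bases upstream of the annotated start in the TAIR10.1 assembly, 5′ to 3′ on the gene's strand, with the motifs searched in capitals: the G-box CACGTG, the I-box GATAAG and the CCAAT motif CCAATC, on both strands. PETE1 (AT1G76100, chr1:28554931-28555180) and PETE2 (AT1G20340, chr1:7043393-7043642) encode plastocyanin, LHCA4 (AT3G47470, chr3:17495034-17495283) a photosystem I antenna protein, and RBCS1B (AT5G38430, chr5:15385321-15385570) and RBCS2B (AT5G38420, chr5:15382072-15382321) Rubisco small subunits. All 5 genes lie on the minus strand.
PETE1: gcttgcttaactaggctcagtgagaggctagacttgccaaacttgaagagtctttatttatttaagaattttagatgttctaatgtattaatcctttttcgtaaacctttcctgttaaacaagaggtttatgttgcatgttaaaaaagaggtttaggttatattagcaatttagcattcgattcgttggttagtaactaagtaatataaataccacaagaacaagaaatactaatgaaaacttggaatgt
PETE2: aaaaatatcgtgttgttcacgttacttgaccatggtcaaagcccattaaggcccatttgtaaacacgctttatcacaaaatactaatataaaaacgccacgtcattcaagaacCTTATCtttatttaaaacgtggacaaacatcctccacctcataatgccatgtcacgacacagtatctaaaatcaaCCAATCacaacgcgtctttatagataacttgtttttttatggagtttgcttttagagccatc
LHCA4: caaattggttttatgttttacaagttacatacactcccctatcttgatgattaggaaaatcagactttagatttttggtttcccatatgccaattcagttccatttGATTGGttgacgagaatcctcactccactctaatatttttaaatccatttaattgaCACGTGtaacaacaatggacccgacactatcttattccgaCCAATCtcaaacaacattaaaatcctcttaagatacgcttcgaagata
RBCS1B: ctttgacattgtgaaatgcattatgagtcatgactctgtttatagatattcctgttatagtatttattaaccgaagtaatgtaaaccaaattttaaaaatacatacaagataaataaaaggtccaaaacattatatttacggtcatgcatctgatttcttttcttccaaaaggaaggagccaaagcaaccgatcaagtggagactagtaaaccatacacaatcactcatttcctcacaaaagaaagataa
RBCS2B: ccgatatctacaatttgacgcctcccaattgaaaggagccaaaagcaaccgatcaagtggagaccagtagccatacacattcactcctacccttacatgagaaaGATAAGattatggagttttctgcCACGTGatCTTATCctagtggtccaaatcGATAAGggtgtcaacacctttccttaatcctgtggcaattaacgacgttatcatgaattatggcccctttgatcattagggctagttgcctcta
The PETE1 and RBCS1B stretches hold none of these motifs, PETE2 holds an I-box and a CCAATC, LHCA4 a G-box and 2 CCAATC, and RBCS2B a G-box and 3 I-boxes. The annotated start lies 165 bases before the coding sequence in RBCS1B and 93 in RBCS2B, so their stretches cover different parts. The last bases of the RBCS1B stretch resemble those leading into the first I-box of RBCS2B. Bases past its end were not searched, so RBCS1B is not shown to lack the motifs. Over the members, 9 of 49 promoters (18.4%) held the G-box against 6.49% of 27443 promoters of the same length. The I-box stood in 12 (24.5%) against 12.3%, and CCAATC in 13 (26.5%) against 10.2%. The shorter ACGT, which also lies inside the G-box, stood in 24 (49%) against 44.1%. The annotated start lies 0 bases before the coding sequence in LHCB2.3, 418 in RBCS1A and 1547 in PSBS. Bases past the annotated start were not searched in any gene, so these shares leave out motifs there. A match is a description of letters and not of a bound site.

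RBCS1B, RBCS2B and RBCS3B stand in a row on the minus strand of chromosome 5 (chr5:15376988-15385320), and their first 60 coding bases show how few bases tell the copies apart. Capitals mark bases that differ from RBCS1B.
RBCS1B coding: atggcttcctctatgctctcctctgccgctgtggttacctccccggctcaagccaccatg
RBCS2B coding: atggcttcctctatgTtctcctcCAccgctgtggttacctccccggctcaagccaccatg
RBCS3B coding: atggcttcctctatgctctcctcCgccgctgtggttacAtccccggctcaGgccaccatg
Over their whole coding sequences RBCS1B and RBCS2B are 97.3% identical, LHCB1.1 and LHCB1.3 96.1%, and PETE1 and PETE2 60.3%. Along the exons, RBCS1B shares 151 windows of 50 bases with RBCS2B and 184 with RBCS3B, at places other than the stretch shown. Reads that align at several places were not counted, so copies are read through the bases in which they differ. For 37 of 49 members every window of 50 bases along the exons was found once in the genome. The share found once was under 90% in 11 members, all of them in the LHCB1, LHCB2, RBCS and LHCA2 loci, and was lowest in LHCB2.2, at 71.9%. Differences among such copies are uncertain in size. LHCB1.5 is overlapped by the antisense locus AT2G08665, and the strand setting of the counting is not given, so their reads may be mixed.

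Root libraries held 14810514 to 24006279 counted reads and shoot libraries 17008543 to 23880472. The members took 15.7% to 22% of the counted reads in shoots and 0.00663% to 0.191% in roots. HY5 transcript was lower in hy5 roots than in Col-0 roots (log2 fold change -1.96 at 21 °C), but in the shoot libraries labelled hy5 it was not lower past the threshold (-0.03, edgeR adjusted p = 0.938), so there it does not check the label. PHYA was lower in both phyAB tissues (log2 fold change -3.06 in roots and -1.95 in shoots at 21 °C). PHYB was lower in phyAB roots (-1.49 at 21 °C) but only slightly lower in phyAB shoots (-0.38 at 21 °C), and was not called there at 27 °C. In shoots PHYB thus checks the label only weakly. The phyAB root libraries numbered 3 carry a shoot source name beside a root title and tissue and were used as roots. The phyAB root libraries numbered 2 stood apart at both temperatures, with 93 and 115 reads of RBCS1B, RBCS2B and RBCS3B together against 6 to 17 in the other phyAB root libraries, and the Col-0 root library numbered 2 at 21 °C held 195 against 27 and 32. In phyAB shoots, seed storage transcripts summed to 257 to 2812 CPM, against at most 9.40 CPM in the other shoot libraries. The shoot libraries numbered 3 at 27 °C stood apart in each genotype by their reads that align at several places. These made up 27.8% (Col-0), 34.6% (hy5) and 28.8% (phyAB) of reads, against at most 16.5% in the other shoot libraries. Fits without these libraries are given among the alternatives.

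**Figure D1:**
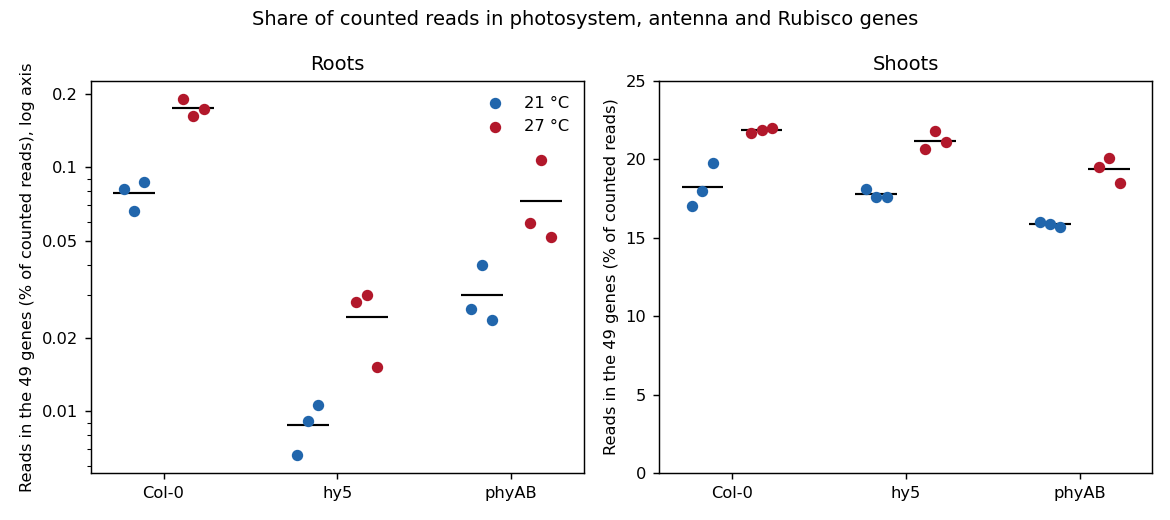
Summed share of counted reads, in percent, taken by the 49 members in each library, for roots (log axis) and shoots (linear axis). Points are single libraries and bars the mean of 3. In roots the Col-0 libraries sit at 0.0665% to 0.0868% at 21 °C and 0.162% to 0.191% at 27 °C, above every hy5 library, while the shoot libraries lie between 15.7% and 22%.

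In Col-0 roots the members took 0.0783% ± 0.0106 of counted reads (SD, n = 3) at 21 °C and 0.176% ± 0.0146 at 27 °C. In hy5 roots the shares were 0.00879% ± 0.00200 and 0.0244% ± 0.00803, and in phyAB roots 0.0299% ± 0.00860 and 0.0726% ± 0.0299. The 27 °C libraries lay above the 21 °C libraries of the same genotype in each of the 3 genotypes. The hy5 libraries at 27 °C, at 0.0152% to 0.0300%, lay below the Col-0 libraries at 21 °C. In bulk tissue, fewer cells of a type and less RNA per cell cannot be told apart.

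Levels per kilobase of exon, in reads per 1000000 counted reads (CPM, scaled by TMM factors), order the members within a group. In Col-0 roots at 21 °C, LHCB1.5 (AT2G34420), a major antenna protein of photosystem II, stood highest at 107 ± 29.8 CPM per kb. It was followed by PSBR (AT1G79040), a photosystem II subunit, at 74.2 ± 10.9, LHCA4 at 46.2 ± 9.2, PSBO1, of the oxygen-evolving complex, at 38.7 ± 5.4 and PSBX, a small photosystem II subunit, at 28.3 ± 3.04. PSAF (AT1G31330), the plastocyanin-docking subunit of photosystem I, stood at rank 6, at 27.6 ± 4.18, and RBCS1A at rank 9, at 22.1 ± 1.12. PSBX and PSAF do not differ beyond their spread. LHCB1.5 and PSBR overlap within their SD. In hy5 roots at 21 °C, LHCA4 and PSBR led at 13.7 ± 2.41 and 13.0 ± 2.33 CPM per kb, which do not differ beyond their spread. In Col-0 shoots at 21 °C, RBCS1A (AT1G67090) stood highest at 26924 ± 987 CPM per kb, followed by LHCB1.3 at 10864 ± 1526, LHCB1.1 at 6194 ± 819, RBCS3B at 6154 ± 839, LHCB1.5 at 5695 ± 803, RBCS2B at 5227 ± 354, LHCB3 at 5210 ± 537 and LHCA4 at 5033 ± 588. From LHCB1.1 to LHCA4, no neighbours in this order differ beyond their spread.

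The first question is how warmth moved these transcripts in roots. Of the 49 members, 47 passed the filter on low counts in roots, and LHCA6 and RBCS1B did not. In Col-0 roots, 33 of 47 rose and 0 fell at 27 °C (edgeR adjusted p under 0.05), against 21.7% of all 20355 genes that rose and 21.8% that fell. DESeq2 called 27 higher and 0 lower, and at an unadjusted p under 0.05 edgeR gave 34 and 0. Of all 20355 genes, 10295 passed unadjusted, both directions together. The median log2 fold change of the 47 was 0.95, against 0.00 over all genes tested. Without TMM scaling, on total counts alone, the same numbers of members passed, while the split over all genes moved from 4415 higher and 4442 lower to 5696 and 3303.

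Of photosystem I, 10 of 12 subunits rose in Col-0 roots, all but PSAG and PSAH2, with a median log2 fold change of 1.13. The lumen subunit PSAN (AT5G64040) went from 5.97, 4.45 and 7.41 CPM at 21 °C to 16.2, 17 and 18.7 CPM at 27 °C, and the libraries did not overlap. Its log2 fold change was 1.55, the same as that of PSAL, a subunit of the face where photosystem I docks mobile antenna. Of the antenna of photosystem I, LHCA1 to LHCA4 rose, by 1.29, 1.70, 1.37 and 1.3 on the log2 scale. LHCA4 had 64.3, 46.3 and 68.8 CPM at 21 °C and 158, 137 and 145 CPM at 27 °C. LHCA2 had 4.71, 4.19 and 6.61 CPM and then 20.2, 14.1 and 15.9 CPM. Both were higher in every 27 °C library (adjusted p = 2.7e-05 for LHCA4 and 0.00162 for LHCA2). LHCA5, which joins photosystem I to the NDH complex, stood at 6.03, 4.57 and 5.06 CPM and then 5.31, 4.83 and 4.99 CPM, with overlapping libraries and a log2 fold change of -0.04.

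Photosystem II rose in 9 of 10 subunits tested. PSBO2 (AT3G50820), an oxygen-evolving complex protein that stabilises the manganese cluster, had the largest log2 fold change of the called members, 1.80 ± 0.19 (SE, adjusted p = 7.22e-07). It stood at 12.2, 10.1 and 13.7 CPM at 21 °C and at 40.4, 42.0 and 42.4 CPM at 27 °C, with no overlap. Its relative PSBO1, at 61.0, 49.2 and 64.8 CPM and then 120, 103 and 108 CPM, had a log2 fold change of 0.92. PSBS (AT1G44575), the sensor of lumen acidity that switches on energy dissipation, was the exception, at 41.5, 36.3 and 28.8 CPM and then 29.6, 27.5 and 29.4 CPM (log2 fold change -0.30 ± 0.23, adjusted p = 0.314). All 5 minor antenna genes rose, with a median of 1.45, and LHCB4.3 went from 0.456, 0.720 and 0.751 CPM to 2.45, 1.64 and 1.43 CPM (1.5 ± 0.35, adjusted p = 0.00185).

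The major antenna split by copy. LHCB1.5 had 119, 77.3 and 138 CPM in Col-0 roots at 21 °C and 391, 308 and 355 CPM at 27 °C, a log2 fold change of 1.66 ± 0.37 (adjusted p = 0.00135). The other LHCB1 copies did not pass, and LHCB1.1 stood at 1.27, 3.30 and 0.901 CPM and then 1.16, 1.09 and 0.797 CPM. LHCB3 and LHCB2.1 rose by 1.14 and 1.39 on the log2 scale. The plastocyanin genes PETE1 and PETE2 rose by 1.28 ± 0.35 (adjusted p = 0.00582) and 1.07 ± 0.30 (adjusted p = 0.00715), while PETC, the Rieske protein of cytochrome b6f, did not pass (0.38). None of the 3 RBCS genes tested passed in edgeR, at any genotype. RBCS1A lay at 27.7, 29.6 and 26.8 CPM and then 55.6, 41.4 and 44.9 CPM, without overlap, but with an adjusted p of 0.297.

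**Figure D2:**
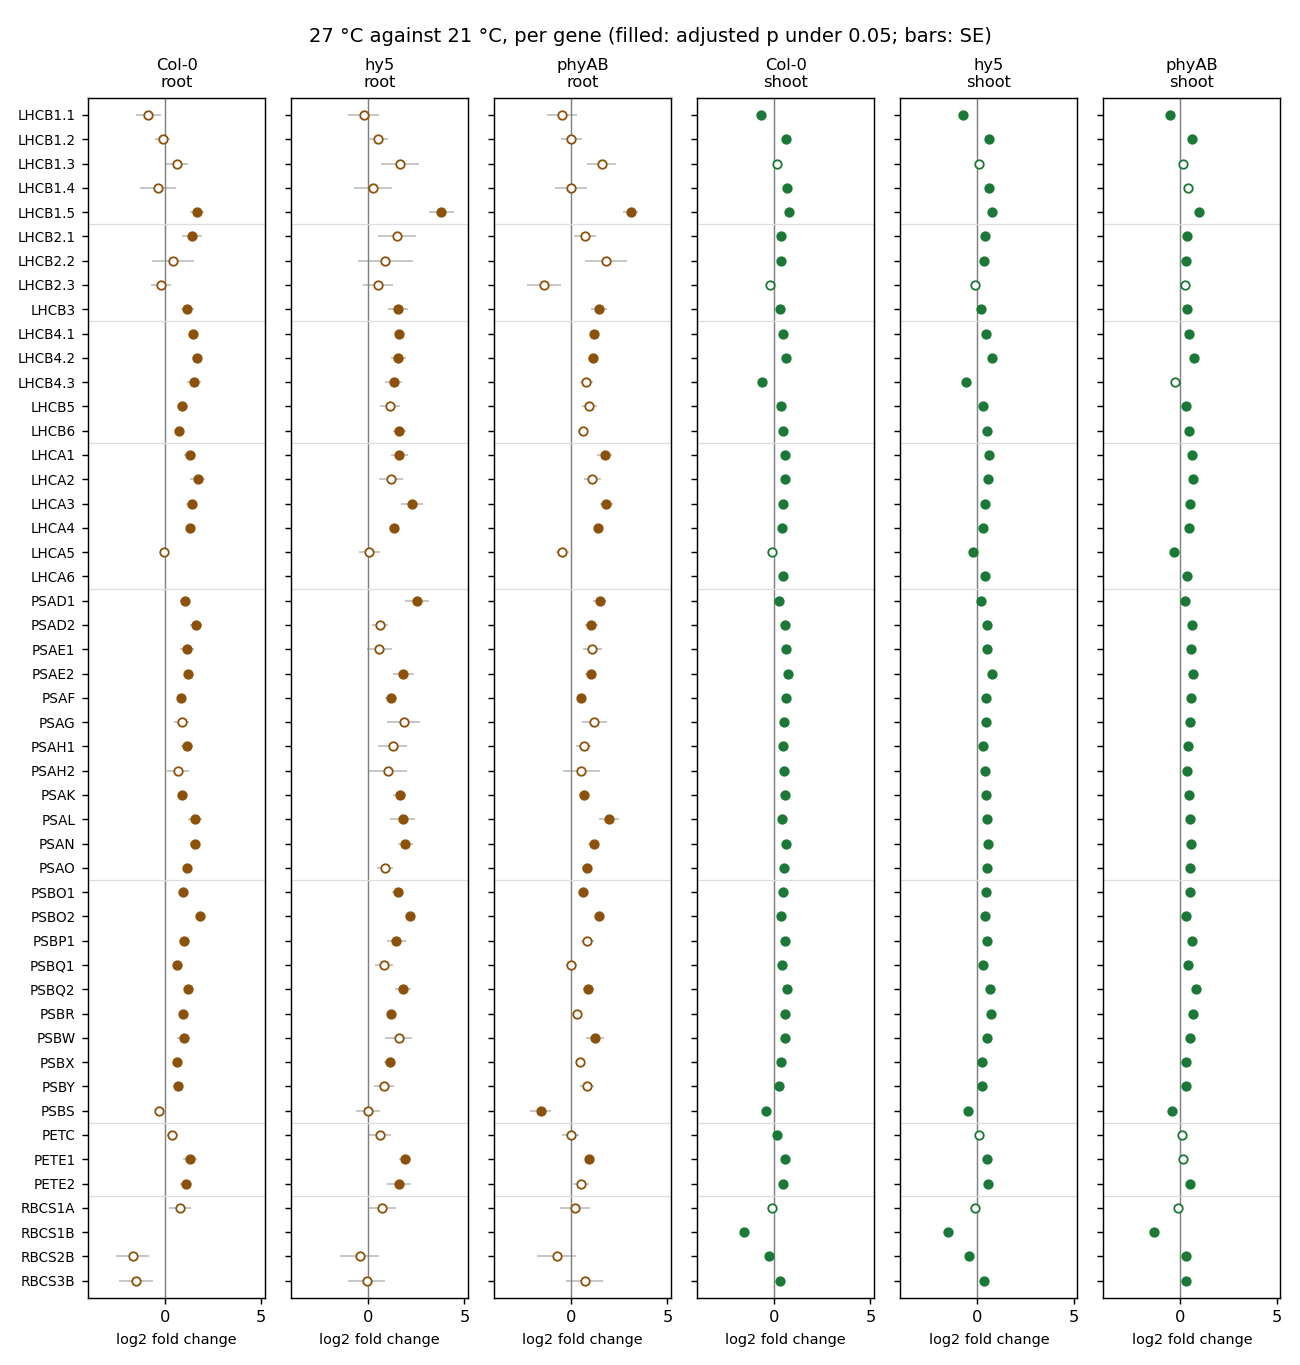
Log2 fold change at 27 °C against 21 °C of each member, in panels for roots (brown) and then shoots (green) of Col-0, hy5 and phyAB, with lines between roles. Filled points passed an edgeR adjusted p of 0.05, open points did not, and bars are 1 SE. Root changes reach 3.80 for LHCB1.5 in hy5, while shoot changes lie between -1.56 and 1.0.

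In hy5 roots, 23 of 47 rose and 0 fell, against 25.7% of all genes that rose and 23.9% that fell. Unadjusted, 26 were higher and 0 lower, beside 11303 of all 20355 genes in both directions together, and DESeq2 called 25 and 0 members. In phyAB roots, 20 rose and 1 fell, against 19.2% in each direction over all genes. All 23 and all 20 were among the 33 that rose in Col-0 roots, and 17 rose in all 3 genotypes. These comparisons share no libraries, though they share one estimate of the spread. The same overlap between genotypes was not counted over all genes. It is therefore not read as particular to the members.

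LHCB1.5 had the largest log2 fold change among called members in both mutants. In hy5 roots it went from 1.1, 1.35 and 1.87 CPM to 28.7, 26.4 and 3.23 CPM, so that the 27 °C library numbered 3 was far below the other 2 (3.80 ± 0.63, adjusted p = 6.93e-05). In phyAB roots it went from 15.2, 23.6 and 27.0 CPM to 156, 248 and 150 CPM (3.08 ± 0.41, adjusted p = 1.47e-05). Neither pair of groups overlapped, and the hy5 libraries at 27 °C stayed below Col-0 at 21 °C.

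PSAD1 (AT4G02770), a subunit on the ferredoxin side of photosystem I, went from 0.552, 0.548 and 0.387 CPM in hy5 roots to 3.71, 4.02 and 0.838 CPM (2.52 ± 0.62, adjusted p = 0.00249). LHCA3 went from 0.452, 0.897 and 1.74 CPM in hy5 roots to 5.97, 6.46 and 1.80 CPM (2.3 ± 0.57, adjusted p = 0.00272). In both, the hy5 library numbered 3 at 27 °C was the lowest of its group and no library of the groups overlapped. LHCA3 also rose in phyAB roots, from 6.30, 9.70 and 4.93 CPM to 18.5, 38.5 and 17.6 CPM (1.82 ± 0.34, adjusted p = 0.00036). There PSAL went from 0.654, 1.89 and 1.15 CPM to 2.89, 9.07 and 2.39 CPM, without overlap (1.95 ± 0.51, adjusted p = 0.00537), a call that was lost without the 27 °C library numbered 2 (adjusted p = 0.0642).

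PSBS was the 1 member that fell, in phyAB roots, from 2.26, 3.50 and 1.22 CPM to 0.254, 1.72 and 0.368 CPM (-1.59 ± 0.56, adjusted p = 0.0319). The groups overlapped through the library numbered 2 at 27 °C, which held 32 reads of PSBS against 5 and 6. The call was not made by DESeq2, without the phyAB root libraries numbered 3, or in 4 of the fits that left out a library. The count of 20 risers in phyAB roots was 14 without the libraries numbered 2, 20 without those numbered 3, and 10 to 28 over fits that left out 1 library. The lowest, 10, came without the 27 °C library numbered 2, and leaving out the 21 °C library numbered 3 gave 12.

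The second question is what the mutants changed at a given temperature. The hy5 and the phyAB comparisons share their Col-0 libraries, so their values stand side by side and are not independent. In hy5 roots at 21 °C, 39 of 47 members were lower and 0 higher than in Col-0, against 18.4% of all genes lower and 16.7% higher. DESeq2 called 37 lower and 0 higher, and at an unadjusted p under 0.05 edgeR gave 39 and 0. Of all 20355 genes, 8949 passed unadjusted, both directions together. The median log2 fold change of the 47 members was -3.03. At 27 °C, 39 were lower and 1 higher, against 17.4% and 16.0%, with a median of -2.79. In phyAB roots at 21 °C, 29 were lower and 1 higher, against 17.9% and 17.2%, with a median of -1.32. At 27 °C, 36 were lower and 1 higher, against 16.6% and 14.6%, with a median of -1.38. The 1 higher member was PETE1 in each of these 3 cases. Without the phyAB root libraries numbered 2, 39 members were lower in phyAB at 21 °C and 41 at 27 °C, and without those numbered 3, 26 and 32.

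By role, the members lower in hy5 roots at 21 °C were 11 of 12 photosystem I subunits, 10 of 10 photosystem II subunits, 5 of 5 LHCA genes tested, 4 of 5 minor antenna genes, 3 of 5 LHCB1 copies, 3 of 4 LHCB2 and LHCB3 genes, 2 of 3 electron carriers and 1 of 3 RBCS genes tested. In phyAB roots at 21 °C the same roles gave 8, 7, 4, 3, 3, 1, 2 and 1. The 8 members that did not pass in hy5 were PSAD2, LHCB1.1, LHCB1.4, LHCB2.2, LHCB4.3, PETE1, RBCS2B and RBCS3B. Most of these were low in Col-0 roots already, such as PSAD2 at 1.97, 2.16 and 1.60 CPM against 0.652, 1.15 and 1.61 CPM in hy5. PSAD1 and PSAD2 encode the same photosystem I subunit, and PSAD2 held 8.14% ± 1.99 of their counted reads in Col-0 roots at 21 °C and 67.5% ± 13.2 in hy5 roots, on 24 to 34 reads in each hy5 library.

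LHCB1.5 differed most in hy5 roots at 21 °C, at 1.1 to 1.87 CPM against 77.3 to 138 CPM in Col-0, a log2 fold change of -6.30 ± 0.58, or 78.6-fold lower (adjusted p = 7.56e-08). PSAD1 was 42.9-fold lower (-5.42 ± 0.45) and PSBS 36-fold lower (-5.17 ± 0.37), with PSBS at 0.552, 0.698 and 1.87 CPM against 41.5, 36.3 and 28.8 CPM. No hy5 library reached the lowest Col-0 library for any of these 3 genes. At 27 °C, PSBS was 29.7-fold lower, LHCB1.5 17.8-fold lower and PSBQ1, an oxygen-evolving complex protein, 16.0-fold lower (adjusted p = 7.42e-09, 3.72e-07 and 1.73e-09). LHCA4 was among the members with smaller called differences, at 18.3, 20.6 and 14.4 CPM in hy5 against 64.3, 46.3 and 68.8 CPM in Col-0 at 21 °C (-1.74 ± 0.21, adjusted p = 2.77e-06).

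PSBS was the member that differed most in phyAB roots too. It was 15.0-fold lower at 21 °C (-3.90 ± 0.32, adjusted p = 3.13e-08) and 36.4-fold lower at 27 °C (-5.19 ± 0.39, adjusted p = 8.69e-09), and no library overlapped with Col-0. At 21 °C it was followed by PSAG, a small membrane subunit of photosystem I, at -2.65 ± 0.57 and PSAD1 at -2.44 ± 0.32. At 27 °C RBCS1A was 6.31-fold lower (-2.66 ± 0.65, adjusted p = 0.00397), at 1.93, 18.8 and 1.47 CPM against 55.6, 41.4 and 44.9 CPM in Col-0, with the library numbered 2 well above the other 2. LHCB2.3 was 5.77-fold lower at 27 °C (adjusted p = 0.0135, and 0.0672 without the phyAB library numbered 1). LHCB1.5 was lower in phyAB at 21 °C (-2.35 ± 0.41, adjusted p = 0.000164) and did not pass at 27 °C (-0.93 ± 0.36, adjusted p = 0.0589).

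**Figure D3:**
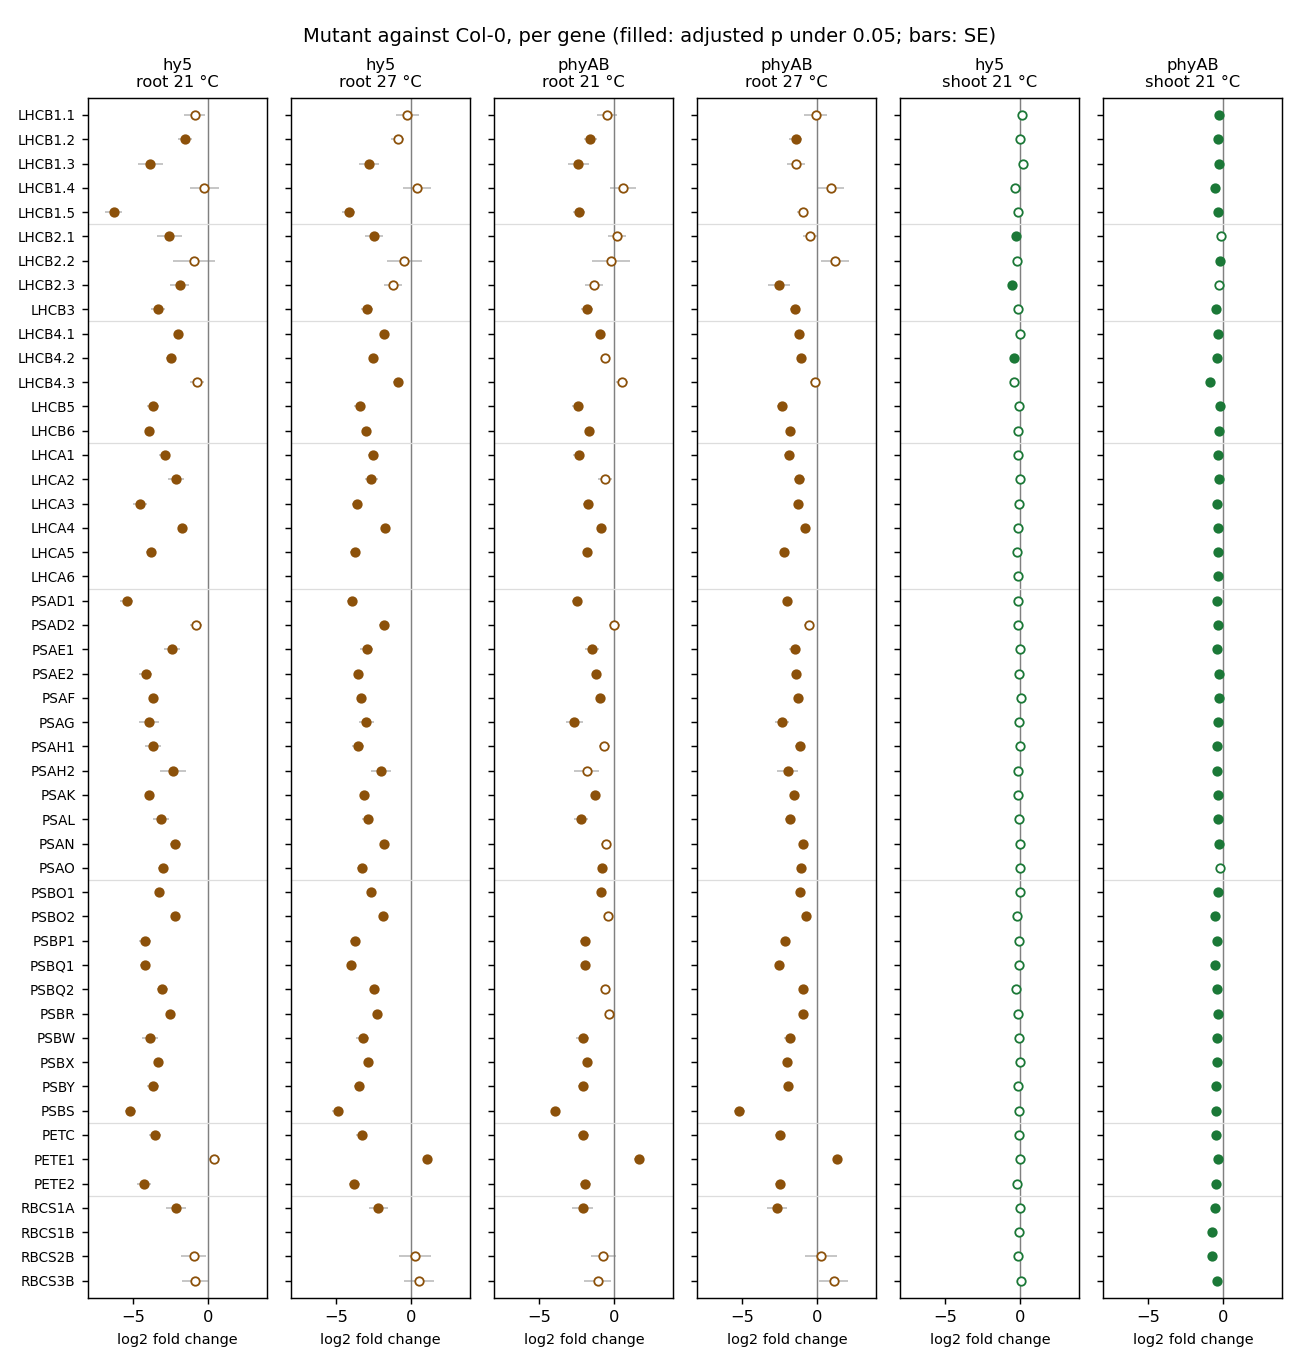
Log2 fold change of each member in hy5 and phyAB against Col-0, with panels from left to right for hy5 roots and then phyAB roots at 21 °C and 27 °C (brown), and for hy5 and phyAB shoots at 21 °C (green). Filled points passed an edgeR adjusted p of 0.05 and bars are 1 SE. Root differences reach -6.30 for LHCB1.5 in hy5, PETE1 stands above 0 in phyAB roots at 1.71, and shoot differences lie within 1 log2 unit of 0.

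The plastocyanin genes parted in mutant roots. At 21 °C, Col-0 roots had 21.2, 17.3 and 24.6 CPM of PETE2, hy5 roots 0.401, 0.747 and 2.32 CPM, and phyAB roots 4.04, 8.26 and 4.53 CPM. Its log2 fold change against Col-0 was -4.28 ± 0.48 in hy5 (adjusted p = 9.4e-07) and -1.89 ± 0.37 in phyAB (adjusted p = 0.000471). Of PETE1, Col-0 roots had 0.253, 0.169 and 0.300 CPM, hy5 roots 0.251, 0.399 and 0.323 CPM, and phyAB roots 0.832, 0.976 and 0.541 CPM. These PETE1 values rest on few reads, 4 to 6 in each Col-0 and 8 to 17 in each phyAB library. PETE1 was higher in phyAB (1.71 ± 0.35, adjusted p = 0.00072) and did not pass in hy5 at 21 °C (0.44 ± 0.41, adjusted p = 0.51). At 27 °C it was higher in both, by 1.07 ± 0.26 in hy5 (adjusted p = 0.00353) and 1.38 ± 0.25 in phyAB (adjusted p = 0.000333), with libraries at 0.664, 0.502 and 0.587 CPM for Col-0, at 0.978, 1.42 and 1.32 CPM for hy5 and at 1.77, 1.45 and 1.35 CPM for phyAB. Both mutants lay above Col-0 there without overlap. PETE1 held 1.12% ± 0.128 of the counted PETE reads in Col-0 roots at 21 °C, 28.5% ± 14.2 in hy5 and 12.8% ± 3.73 in phyAB. The hy5 share rests on 13, 23 and 41 PETE reads, of which PETE1 took 38.5%, 34.8% and 12.2%. Of the promoter stretches above, that of PETE1 holds none of the motifs searched and that of PETE2 an I-box and a CCAATC. Neither holds a G-box. The pair was shown because its levels moved apart, and a link between motifs and levels was not tested.

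**Figure D4:**
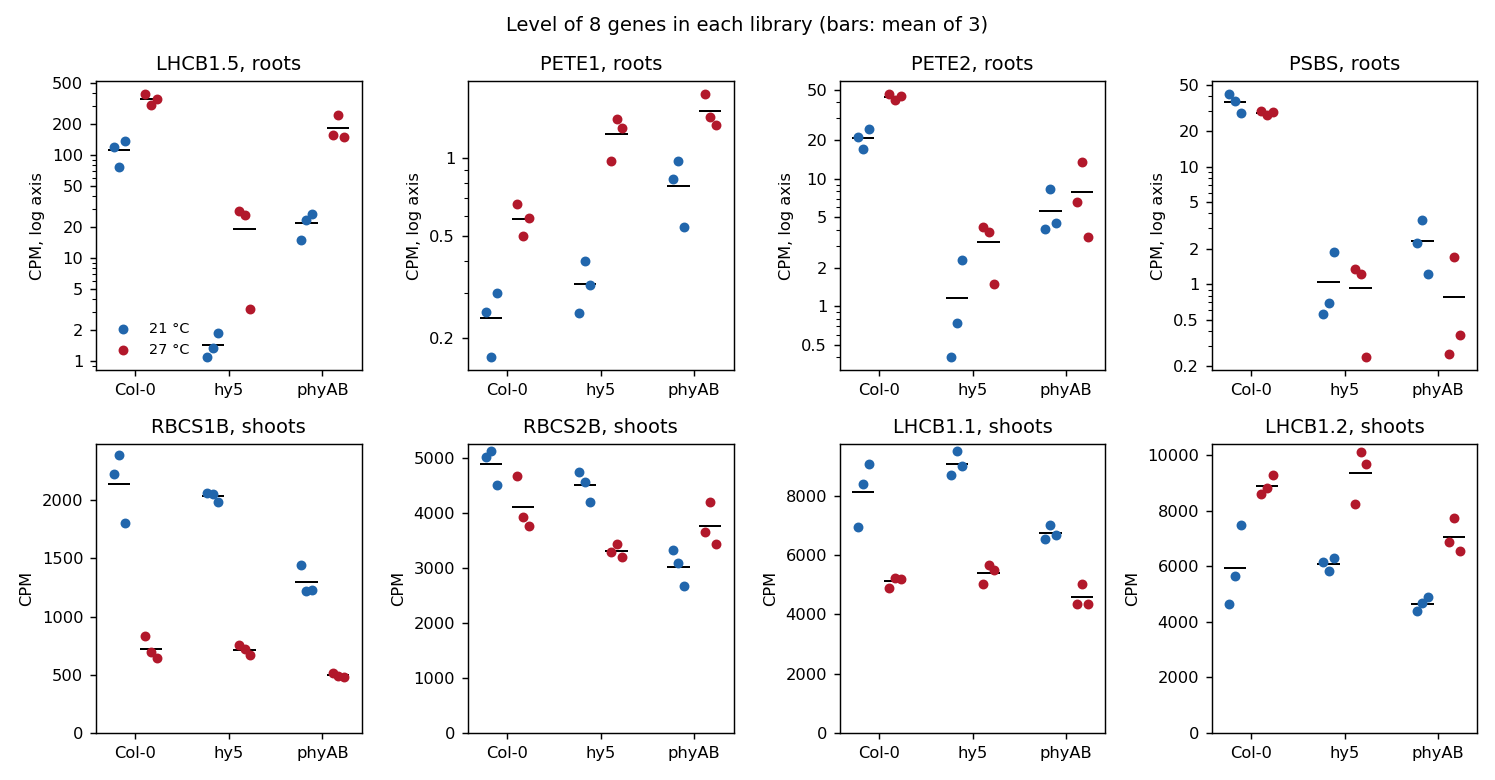
CPM in each library (points) for LHCB1.5, PETE1, PETE2 and PSBS in roots (log axis) and for RBCS1B, RBCS2B, LHCB1.1 and LHCB1.2 in shoots, by genotype and temperature. In roots PETE1 lies higher in phyAB than in Col-0 while PETE2 and PSBS lie far lower, and in shoots RBCS1B lies lower at 27 °C in each genotype.

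Markers of shoot cells were read beside these root values. Non-photosynthetic shoot markers summed to 8.99 to 16.6 CPM in roots and 1167 to 2793 CPM in shoots, with AS1 at 7.97 to 16.0 CPM in roots. ESM1 (up to 0.656 CPM) and TMM had reads in all 18 root libraries, and TGG1 (up to 0.386 CPM) in all but 5. YAB2, YAB5, STM, SPCH, FAMA and TGG2 were at 0 in 8 to 17 of them, and YAB1, YAB3 and GL1 in 18. In shoots YAB1 and GL1 had medians of only 46.0 and 1.68 CPM, so their absence from roots cannot tell whether a small share of shoot RNA was present. If all reads of RBCS1B, RBCS2B and RBCS3B in a root library came from shoot RNA of the same genotype and temperature, that RNA would carry 1.66% to 13.6% of the reads of the other 46 members in Col-0 roots at 21 °C and 0.643% to 1.48% at 27 °C. The same values were 12.5% to 40.9% and 7.96% to 13.9% in hy5 roots, and 1.93% to 16.8% and 0.987% to 8.04% in phyAB roots, with the phyAB libraries numbered 2 the highest. Single members ran higher, above all in hy5 roots at 21 °C, where 9, 13 and 17 members were over 50% in the libraries numbered 1, 2 and 3. PSAG stood at 63.0% to 224% there, PSAD1 at 22.1% to 160%, LHCB1.1 at 102% to 129%, RBCS1A at 54.7% to 84.3% and LHCB1.5 at 25.3% to 75.6%. At 100% or above, all counted reads of the member could come from shoot RNA by this measure. The part of such RNA in the differences between genotypes was not tested.

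Whether the response to warmth itself differed between genotypes in roots was tested directly. Neither mutant's response differed from that of Col-0 for any member at an adjusted p of 0.05, against 0.236% of all genes higher and 0.177% lower for hy5 and 0.0295% and 0.0688% for phyAB. DESeq2 also called 0 in both, of 47 and 44 members with an adjusted p. At an unadjusted p under 0.05, hy5 had 3 members higher, LHCB6, LHCB1.5 and PSAD1, and 0 lower, and phyAB had LHCB1.5 higher and PSBS and PSBR lower, all named after their values were seen. Over all 20355 genes, 2032 passed that unadjusted threshold for hy5 and 2000 for phyAB, both directions together. For LHCB1.5 the difference was 2.14 for hy5 (unadjusted 95% interval 0.62 to 3.67, adjusted p = 0.318) and 1.42 for phyAB (0.37 to 2.47, adjusted p = 0.385). For LHCA4, whose log2 fold changes were 1.3 (Col-0), 1.32 (hy5) and 1.37 (phyAB), the interval of the hy5 difference ran from -0.53 to 0.57.

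In shoots the members are among the main transcripts. Their summed share of counted reads went from 18.3% ± 1.4 to 21.9% ± 0.160 in Col-0, from 17.8% ± 0.288 to 21.2% ± 0.584 in the shoot libraries labelled hy5 and from 15.9% ± 0.177 to 19.4% ± 0.795 in phyAB (n = 3 each), with no overlap within a genotype. All 49 members passed the filter. In Col-0 shoots 40 rose and 5 fell, against 22.5% and 23.2% of all 20100 genes, with a median log2 fold change of 0.43. In the hy5 shoots 39 rose and 6 fell, against 23.1% and 22.5%, and in phyAB shoots 38 rose and 4 fell, against 21.3% and 22.1%. Of the 41 that rose in any genotype, 37 rose in all 3, and of the 6 that fell in any, 3 fell in all 3. Here too the overlap over all genes was not counted. All 12 photosystem I subunits rose in each genotype, with medians of 0.53, 0.48 and 0.53, and 9 of 10 photosystem II subunits rose in each while PSBS fell.

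Among the risers, LHCB1.5 led in Col-0 shoots at 0.78 ± 0.08, from 5342, 5604 and 6908 CPM to 9990, 9953 and 10608 CPM (adjusted p = 3.19e-07), and in phyAB shoots at 1.0 ± 0.08 (adjusted p = 2.32e-08). PSAE2, a ferredoxin-side subunit, followed in Col-0 at 0.73 ± 0.10, and PSBQ2 at 0.69 ± 0.09. In the hy5 shoots PSAE2 and LHCB4.2 led at 0.77 each, and in phyAB shoots LHCB1.5 was followed by PSBQ2 (0.81) and LHCB4.2 (0.71). The 3 members that fell in every genotype were RBCS1B, LHCB1.1 and PSBS. PSBS had log2 fold changes of -0.42 ± 0.08, -0.50 and -0.41 in the order Col-0, hy5, phyAB. LHCB4.3 fell in Col-0 (-0.64 ± 0.17, adjusted p = 0.00435) and in hy5 (-0.56, adjusted p = 0.0109), in the opposite direction to its rise in Col-0 roots. Its Col-0 shoot libraries overlapped, at 143, 157 and 82.7 CPM and then 90, 81.5 and 75.1 CPM. LHCA5 fell in hy5 (-0.21, adjusted p = 0.00753) and in phyAB (-0.30, adjusted p = 0.000432) and did not pass in Col-0 (-0.13).

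RBCS1B had the largest change in shoots. It went from 2224, 2390 and 1801 CPM to 837, 695 and 640 CPM in Col-0, 2.95-fold lower (-1.56 ± 0.10, adjusted p = 6.85e-09). It went from 2066, 2056 and 1982 CPM to 754, 722 and 671 CPM in hy5 and from 1442, 1217 and 1227 CPM to 516, 488 and 484 CPM in phyAB (-1.51 and -1.38). All 27 °C libraries lay below all 21 °C libraries in each genotype. The neighbouring RBCS3B rose in all 3, by 0.29, 0.35 and 0.31 on the log2 scale. RBCS1A, which holds most RBCS reads, stood at 32704, 34715 and 35000 CPM and then 32375, 31224 and 32042 CPM in Col-0 and did not pass (-0.10 ± 0.06, adjusted p = 0.166). RBCS2B fell in Col-0 (-0.25 ± 0.09, adjusted p = 0.0341) and in hy5 (-0.44, adjusted p = 0.000658) and rose in phyAB (0.32 ± 0.09, adjusted p = 0.00911).

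That RBCS2B difference was the 1 response difference among members in phyAB shoots, 0.56 ± 0.13 (95% interval 0.31 to 0.82, adjusted p = 0.0224), against 1.63% of all genes higher and 1.88% lower. RBCS2B stood at 5011, 5138 and 4513 CPM and then 4671, 3926 and 3758 CPM in Col-0, and at 3320, 3082 and 2670 CPM and then 3662, 4200 and 3433 CPM in phyAB. The call was lost without the shoot libraries numbered 3 at 27 °C and in 5 fits that left out 1 library, with adjusted p-values up to 0.0742. DESeq2 called 2 members. In the hy5 shoots 0 members differed in their response by edgeR or DESeq2, against 0.00498% of all genes higher and 0.00% lower. At an unadjusted p under 0.05 there were 0 members, beside 1870 of all 20100 genes, both directions together.

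LHCB1.1 and LHCB1.2, neighbours on chromosome 1 whose coding sequences are 95.7% identical, moved apart in shoots. LHCB1.1 went from 6953, 8409 and 9054 CPM to 4891, 5235 and 5194 CPM in Col-0 (-0.67 ± 0.08, adjusted p = 2.52e-06), and LHCB1.2 from 4633, 5656 and 7478 CPM to 8607, 8833 and 9276 CPM (0.59). The libraries of the 2 temperatures did not overlap for either. LHCB1.1 held 22.8% ± 1.19 of counted LHCB1 reads at 21 °C and 11.9% ± 0.369 at 27 °C in Col-0 shoots, and 23.8% and 12.4% in hy5 and 23.0% and 12.7% in phyAB. LHCB1.3 held the largest share in Col-0 shoots, 37.3% and 34.1%, and its level did not pass (0.13). In Col-0 roots LHCB1.5 held 76.4% ± 2.82 at 21 °C and 88.0% ± 0.775 at 27 °C, against 16.6% and 23.8% in Col-0 shoots, and in hy5 roots at 21 °C 27.3% ± 7.10. RBCS1B held 4.3% ± 0.634 of counted RBCS reads in Col-0 shoots at 21 °C and 1.53% ± 0.190 at 27 °C. These shares depend on how many windows of each copy can be read.

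**Figure D5:**
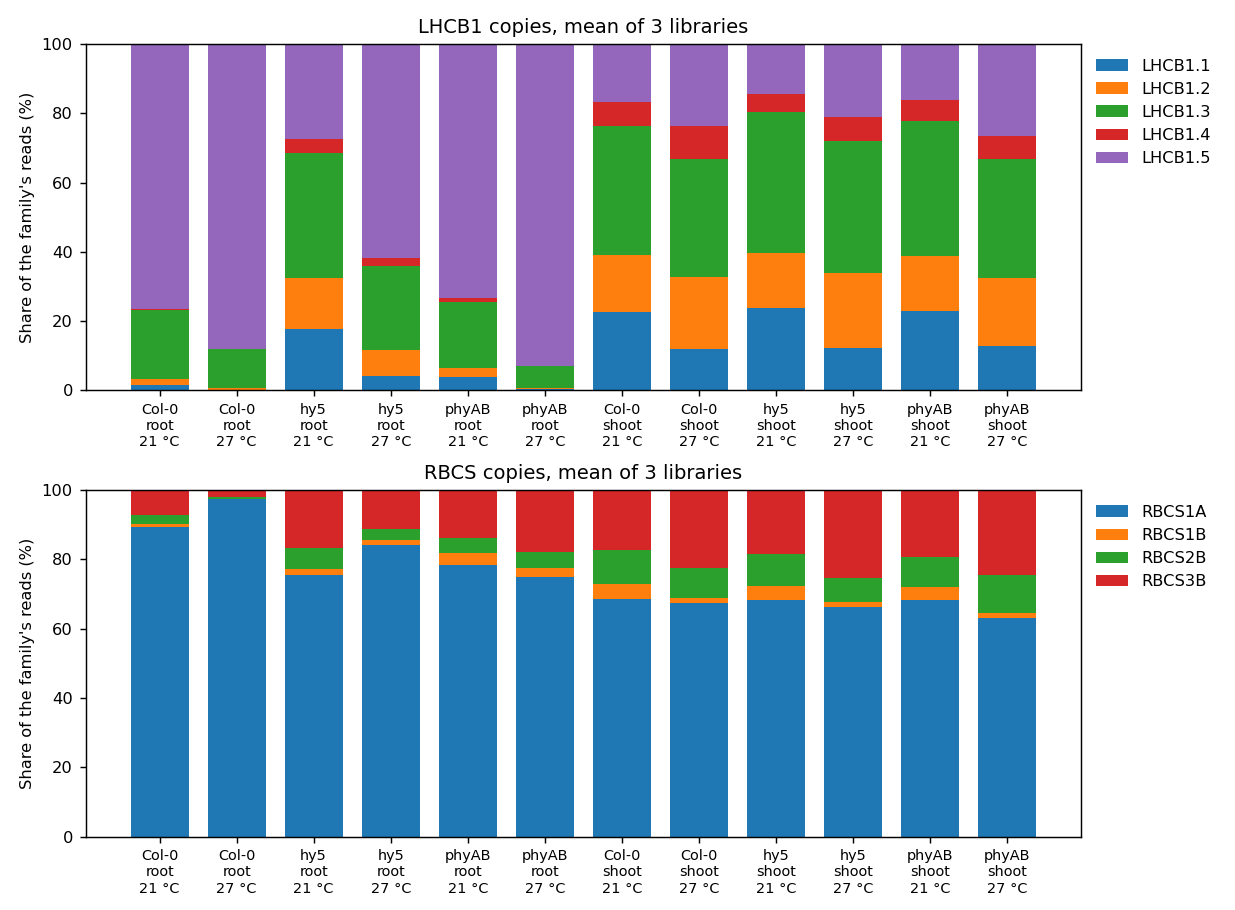
Share of the counted reads of a family held by each LHCB1 copy and each RBCS copy, in percent, as the mean of 3 libraries per group. LHCB1.5 holds 76.4% to 88.0% in Col-0 roots and 16.6% to 23.8% in Col-0 shoots, and in Col-0 shoots the share of LHCB1.1 goes from 22.8% to 11.9% and that of RBCS1B from 4.3% to 1.53%.

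In the shoot libraries labelled hy5 few members differed from Col-0. At 21 °C 3 were lower and 0 higher, against 8.94% and 8.99% of all genes, and they were LHCB2.3 (-0.54 ± 0.10, adjusted p = 0.00126), LHCB4.2 (-0.37 ± 0.09, adjusted p = 0.00638) and LHCB2.1 (-0.26 ± 0.09, adjusted p = 0.0459). At 27 °C 4 were lower and 0 higher, against 6.06% and 6.18%, and they were LHCB2.3 (-0.44), RBCS2B (-0.31), LHCB3 (-0.26) and LHCA5 (-0.24). With the replicate number as a block, which same-numbered libraries bore out at 27 °C, 5 were lower and 1 higher. The median log2 fold changes of all 49 were -0.07 and -0.10. At an unadjusted p under 0.05, edgeR gave 11 lower and 1 higher at 21 °C and 17 lower and 1 higher at 27 °C. Over all 20100 genes, 6254 passed unadjusted at 21 °C and 5290 at 27 °C, both directions together. DESeq2 called 3 members lower and 1 higher at 21 °C and 4 lower and 0 higher at 27 °C. LHCB2.1 lost its call in 7 of the settings tried, with adjusted p up to 0.252, and LHCB3 and RBCS2B in 4 and 5, with adjusted p up to 0.108 and 0.150, each of them among others without the shoot libraries numbered 3 at 27 °C.

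In phyAB shoots at 21 °C, 46 of 49 were lower than in Col-0 and 0 higher, against 20.2% and 18% of all genes. Unadjusted, 48 were lower and 0 higher, beside 9378 of all 20100 genes in both directions together, and DESeq2 called 46 and 0 members. The median log2 fold change of the members was -0.34, against -0.01 over all genes. RBCS genes took 4.675% to 4.96% of counted reads in Col-0 and 3.67% to 4.03% in phyAB, without overlap. LHCB1 genes took 3.00% to 4.05% and 3.04% to 3.33%, which overlap. LHCB4.3 (-0.88 ± 0.17, adjusted p = 0.000395), RBCS1B (-0.72 ± 0.10) and RBCS2B (-0.69 ± 0.09) differed most. At 27 °C 43 were lower and 0 higher, against 23.7% and 18.8%, with 44 and 1 unadjusted and 43 and 0 by DESeq2. Over all 20100 genes, 10002 passed unadjusted at 27 °C, both directions together. LHCB1.4 (-0.76 ± 0.17), PETE1 (-0.68 ± 0.09) and PSBQ1 (-0.57 ± 0.06) differed most there. The counts depended on the scaling: on total counts alone the median of all genes moved by 0.16 at 21 °C and 0.15 at 27 °C, and 25 and 24 members were lower, with 1 higher at 27 °C and member medians of -0.18 and -0.17. The split over all genes then moved from 3614 higher and 4067 lower to 7021 and 1946 at 21 °C, and from 3774 and 4760 to 6851 and 2706 at 27 °C. Without the shoot libraries numbered 3 at 27 °C the 27 °C count was 27. Beside these differences, the seed storage transcripts named above were higher in phyAB shoots and root markers summed to 150 to 188 CPM there, against 115 to 143 CPM in the other shoots, and their part in the result was not tested.

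Roots and shoots of Col-0 were compared for their response in one model of all 36 libraries. For 9 of 49 members the shoot response was lower than the root response and for 0 higher, against 8.83% and 6.92% of all 21598 genes. The median difference was -0.49, and 42 of 49 values were below 0. Unadjusted, 17 were lower and 1 higher, beside 6268 of all 21598 genes in both directions together, and DESeq2 called 8 members lower and 0 higher. LHCB4.3 differed most, at -2.14 ± 0.45 (adjusted p = 0.00131), followed by PSBO2 at -1.47 ± 0.22 (adjusted p = 2.96e-05) and LHCA2 at -1.16 ± 0.39 (adjusted p = 0.0416). The LHCA2 call was lost in 10 of the settings tried, with adjusted p up to 0.123. On total counts alone 13 members were lower, and the split over all genes moved from 1495 higher and 1907 lower to 828 and 2965.

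Nuclear genes of the same chloroplast pathway outside the set were read from 2 lists, and plastid-encoded genes from a further list. Of 16 Calvin cycle genes, 5 rose and 2 fell with warmth in Col-0 roots, near the 21.7% and 21.8% over all genes, among them CP12-1, a regulator of the cycle (1.65), and RCA, Rubisco activase (1.24), which rose, and TKL1, a transketolase (-0.44), which fell. In hy5 roots CP12-1 and RCA rose by 2.61 and 2.01 on the log2 scale. In hy5 roots at 21 °C 11 were lower than in Col-0 and 1 higher, against 18.4% and 16.7% of all genes, with FBA2, an aldolase, at -4.37 and TKL1 at 0.81. In phyAB roots 9 were lower at 21 °C and 11 at 27 °C, against 17.9% and 16.6%. In Col-0 shoots 1 rose and 8 fell with warmth, against 22.5% and 23.2% of all genes, with FBA1 at -0.57 and PGK1, a phosphoglycerate kinase, at 0.16. All 16 were lower in phyAB shoots than in Col-0 at both temperatures, against 20.2% of all genes at 21 °C and 23.7% at 27 °C. Of 11 further genes of electron transport and ATP synthase, 6 rose and 1 fell with warmth in Col-0 roots, against the same 21.7% and 21.8%, among them PGRL1B, of cyclic electron flow (1.05), and PSB28, a photosystem II assembly factor (-0.54). Of these, 9 were lower in hy5 roots and 9 in phyAB roots at each temperature, against 16.6% to 18.4% of all genes in these contrasts. In Col-0 shoots 4 rose and 2 fell, against 22.5% and 23.2%, with PGRL1B at 1.21 and FD2, the main leaf ferredoxin, at -0.36. The plastid-encoded genes summed to 4.28 to 8.04 CPM in Col-0 roots at 21 °C and 2.13 to 5.14 CPM at 27 °C. Among them rbcL, for the large Rubisco subunit, fell with warmth there (-2.30, edgeR adjusted p = 0.00157), while most nuclear members rose. Against Col-0 at 21 °C, psbA was at -4.76 in hy5 roots and rbcL at -5.13 in phyAB roots. At such low levels these sizes are uncertain.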

How the data were processed

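RNA of roots and shoots was sequenced in 36 libraries of 12 groups. Per the labels' protocols, a stranded mRNA kit and single 50-base reads were used. The submitters' processing notes name FastQC, TopHat2, the TAIR10 build, HTSeq and edgeR; their versions, and whether counting used strand, were not given in the sources used here. The values deposited by the authors are raw counts of reads per gene, with 5 summary categories that name no gene, which entered neither library sizes nor tests. Of all reads listed in a file, multi-mapped ones made up 5.00% to 10.4% (root libraries) and 8.29% to 34.6% (shoot libraries), those outside genes 1.17% to 1.81% and 0.697% to 1.51%, those in overlapping genes 0.186% to 0.299% and 0.0566% to 0.0930%, and the other 2 categories were at 0.

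Counts were fitted with edgeR 4.0.16 in R 4.3.3, by quasi-likelihood with TMM factors, the default filter on low counts and the group as the only term, in one model per tissue (20355 genes in roots, 20100 in shoots) and a joint model (21598 genes). In each of 19 contrasts, p-values over all genes tested were Benjamini-Hochberg adjusted, and 0.05 was the threshold. The SE is the absolute log2 fold change divided by the square root of F. Intervals of 95% reach 1.96 SE to either side and are not adjusted for the number of genes. This normal quantile makes them somewhat narrow with so few libraries. Levels are CPM on TMM-scaled library sizes, with SD over 3 libraries; counting noise is large under 1 CPM, about 20 reads. Replicate pairs differed by 3.19 to 14.4 in chi-square per degree of freedom, above counting noise. DESeq2 1.42.0, other scalings, no filter, a replicate block and left-out libraries were alternatives. On simulated data, 160 of 200 genes changed by 2-fold were recovered in each tissue's Col-0 temperature contrast and 120 in the joint difference.

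Named members are the 3 with the largest called change per direction and contrast, with a few relatives for comparison. The members and lists were chosen with earlier results of these data known. Replicate numbers are shared across groups, and a check of whether same-numbered libraries deviate together passed in 3 of 14 contrasts, at correlations of 0.16 to 0.41. The main fits left the number out in every contrast, those 3 included, and the replicate block is given as an alternative. Sequences and coordinates are from RefSeq's TAIR10.1 assembly.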

Additional observations from a re-analysis of the deposited data

Results flagged for a closer look

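Members are listed here because their response to warmth differed between groups of samples by a test of the difference itself in edgeR. RBCS2B responded higher in phyAB shoots than in Col-0 shoots, by 0.56 on the log2 scale. In Col-0, 9 members responded less in shoots than in roots. The shoot-minus-root difference in log2 fold change was -2.14 for LHCB4.3, -1.47 for PSBO2, -1.16 for LHCA2, -1.13 for PSAL, -1.07 for PSAD2, -1.01 for LHCB4.2, -1.01 for LHCB4.1, -0.95 for PSAN and -0.90 for LHCA4. For LHCB4.3 the directions were opposite, a rise in roots and a fall in shoots, and for the other 8 both tissues rose. Their share of all 49 members stands beside 8.83% of all genes lower in the same test.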

How the results depend on the processing

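Over the alternatives tried, 771 values of the counts of genes kept within 1.5 times of the value reported and 84 moved further. Of the single members named, 776 values kept their direction and side of the threshold, 40 lost the call and 0 reversed. The cause of the moves was not tested. By DESeq2, 0 members fell in phyAB roots with warmth, 1 was higher in the hy5 shoots at 21 °C, 2 responded higher in phyAB shoots, and 226, 154 and 30 genes of all differed in response in hy5 roots, phyAB roots and hy5 shoots. RLE size factors gave 1 member higher in the hy5 shoots at 21 °C. Total counts gave 6 members lower there, 25 lower in phyAB shoots at 21 °C, and 24 lower and 1 higher at 27 °C. With no filter on low counts, 147, 91 and 4 genes of all differed in response in hy5 roots, phyAB roots and hy5 shoots. With the replicate block these were 172, 104 and 16, and 1305 in phyAB shoots. The block, supported as a pairing in phyAB roots with warmth and in both shoot contrasts at 27 °C, gave 1 member higher and 5 lower in the hy5 shoots at 21 °C and 1 higher at 27 °C, and moved no other count of members by over 1.5 times.

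Without the phyAB root libraries numbered 3, 0 members fell in phyAB roots, 2 were higher than Col-0 at 21 °C and 9 genes of all differed in response. Without those numbered 2, a setting chosen after seeing the data, 12 did. Without the shoot libraries numbered 3 at 27 °C, 2 members and 1274 genes of all differed in the hy5 shoots at 27 °C, 27 members were lower in phyAB, and 0 members and 259 genes of all differed in the phyAB response. Without the phyAB shoot libraries numbered 3, also chosen after seeing the data, 1 member was higher in phyAB at 27 °C and 277 genes of all differed in response.

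With 1 library left out at a time, members that rose in phyAB roots numbered 10 to 28 and those that fell 0 to 1, and those higher in phyAB roots than in Col-0 at 21 °C 1 to 2. Response differences in roots covered 0 to 1 members higher and 42 to 129 genes of all in hy5, and 7 to 61 genes of all in phyAB. In the hy5 shoots, 0 to 2 members were higher, 2 to 6 lower and 2376 to 3167 genes of all called at 21 °C, and 2 to 4 lower and 1441 to 2137 called at 27 °C. In phyAB shoots at 27 °C 0 to 1 members were higher. Response differences in shoots covered 1 to 28 genes of all in hy5, and 0 to 2 members higher, 0 to 1 lower and 273 to 798 genes of all in phyAB. Values under 1 CPM in roots, such as those of RBCS1B and LHCA6 in every root library, are limited by depth.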
